A study of Mus musculus with 6 samples.

Results

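The ERBB receptors and the EGF family ligands were examined in 4T1 cells, a mouse mammary carcinoma line that spreads from the mammary fat pad, and in an axitinib-resistant derivative. The 10 genes were 4 receptors (Egfr, Erbb2, Erbb3 and Erbb4) and 6 ligands (Areg, Ereg, Hbegf, Tgfa, Btc and Nrg1), chosen by name and matched to the Ensembl identifiers among 53465 genes in the count table. Poly(A) RNA was sequenced from 3 parental (P) and 3 axitinib-resistant (AxR) libraries. AxR cells were derived from post-surgical metastatic lesions (lung or lymph node) of mice that received 100 mg/kg/day of axitinib, which blocks VEGF receptor kinases, and were then kept in culture with 0.5 μM axitinib for more than 2 months. P cells were the parental line, which the study describes as vehicle-treated, although the growth label names 0.5 μM axitinib for all 6 samples and the treatment label only for AxR samples. Drug exposure, growth in the animal and separate culture therefore differ together between the lines and cannot be told apart, and whether AxR is a clone or a mixed population is not given in the sources used here. The labels do not say whether the 3 libraries of a line came from separate cultures, so p-values measure only the spread between these libraries.

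ERBB receptors are membrane tyrosine kinases that pair with each other once a ligand of the EGF family binds, and then signal through RAS, ERK and PI3 kinase. Erbb2 has no known ligand of its own and acts as a partner, whereas Erbb3 binds neuregulins but has a weak kinase and depends on its partner. The ligands are made as membrane-anchored precursors, and metalloproteases of the ADAM family release them from the cell surface. In the mammary gland Areg is known for its role in duct growth, and gain of ERBB2 defines a class of breast cancers.

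Depth lay between 15495260 and 17294525 estimated counts per library, and 13550 genes passed the filter on low counts. Epithelial markers were present in both lines, led by Krt18 in each (676 CPM in P and 867 CPM in AxR, where CPM is the count scaled by the normalized library size). Of the 7 tested, 6 were higher and 1 (Krt19) lower in AxR cells, beside 32.8% higher and 30.8% lower over all genes tested. Krt14 changed most of them, from 1.09 CPM in P to 5.95 CPM in AxR cells, and Krt5 had no count. The epithelial markers summed to 1887 to 2106 CPM in P and 3004 to 3184 CPM in AxR libraries. Leukocyte markers summed to at most 0.520 CPM in a P library and 0.446 CPM in an AxR library. Csf1r was the highest of them in both lines, Cd3e, Tyrobp, Fcer1g and Adgre1 had no count, and Ptprc had at most 2 counts in any library. Endothelial markers summed to at most 0.635 CPM in P and 0.191 CPM in AxR libraries (Cdh5 highest in P, Tek in AxR, Kdr and Emcn without a count), and lung epithelial markers to at most 0.425 and 0.398 CPM (Ager highest in both, Scgb1a1 without a count). Of 7 fibroblast markers only Pdgfra was tested, and it was lower in AxR cells (22.6 against 10.1 CPM), while Col3a1 and Lum had no count and Col1a1 averaged 0.541 CPM in P and 0.248 CPM in AxR cells. What part these marker differences have in the results on the ligands and on Erbb3 was not tested.

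Ligand transcripts were lower and Erbb3 was higher in AxR than in P cells. Of the 10 genes, 8 had enough counts to be tested, and at an adjusted p under 0.05 (edgeR's quasi-likelihood test, Benjamini-Hochberg over all genes tested) 5 were lower and 1 was higher. Over all genes tested, 63.5% passed this threshold, 30.8% being lower and 32.8% higher in AxR cells. The 5 lower genes were the 5 ligands that were tested, with a median log2 fold change of -1.09 against 0.01 over all genes tested. For 6 of the 8 the ranges of the lines were apart, 5 with AxR lower and 1 with AxR higher, beside 68.2% of the genes tested (33.1% with AxR lower and 35.1% with AxR higher). A drop of at least 1 on the log2 scale that also passed this threshold was seen in 4 of the ligands, beside 4.72% of genes tested. A rise of this size that passed was seen in none of the members, beside 7.99%. In bulk RNA a lower level can come from fewer cells with the transcript or from less of it per cell, and these cannot be told apart.

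**Figure D1:**
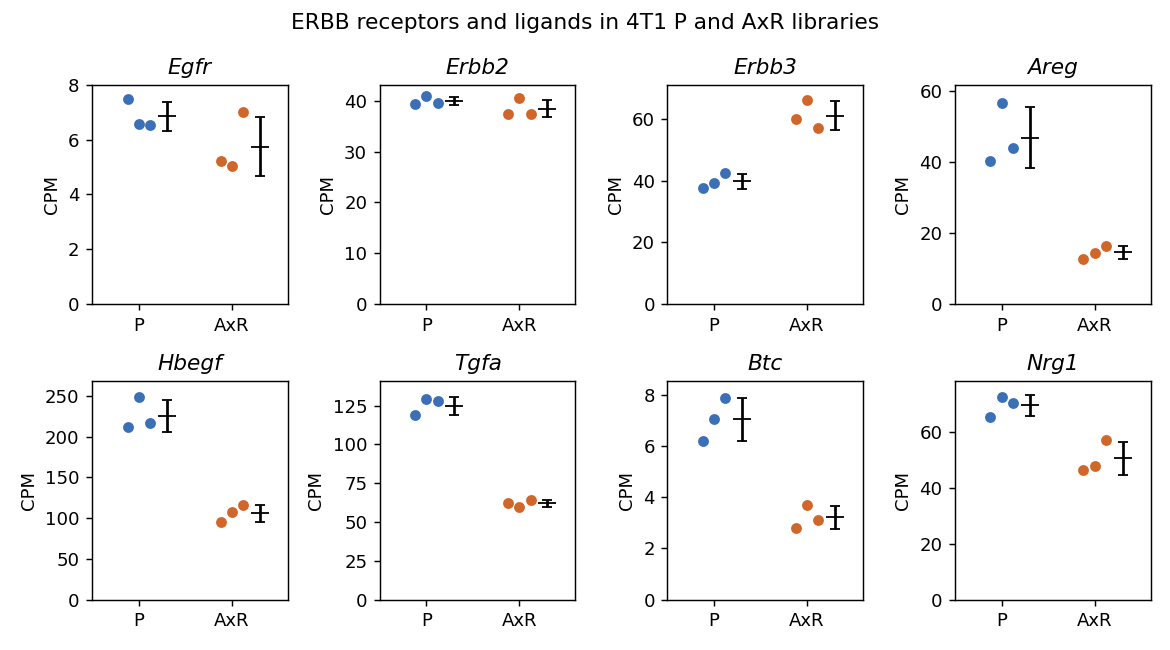
CPM (y axis, from 0) of the 8 tested members in P (blue) and AxR (orange) libraries, with the mean ± SD of 3 libraries in black. The AxR libraries lie below every P library for Areg, Hbegf, Tgfa, Btc and Nrg1, above every P library for Erbb3, and overlap them for Egfr and Erbb2.

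Among the 3 receptors tested, Erbb3 passed the test and Erbb2 and Egfr did not. Erbb3 (ENSMUSG00000018166.8, GRCm38 chr10:128567523-128589652, minus strand), the neuregulin-binding receptor, had 37.6, 39.2 and 42.4 CPM in the P libraries and 60.1, 66.3 and 57.3 CPM in the AxR libraries. The lowest AxR library was thus above the highest P library. The means were 39.8 ± 2.46 and 61.2 ± 4.59 CPM (SD, n = 3 each). This was a log2 fold change of 0.62 (standard error 0.0708, 95% interval 0.47 to 0.77, adjusted p = 1.90e-06 by edgeR), or 1.54-fold. The tested genes of chromosome 10 as a whole stood higher in AxR cells (median 0.25), so that Erbb3 stood 0.37 above its chromosome.

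Erbb2 (ENSMUSG00000062312.5, chr11:98412470-98437716, plus strand), the ligand-less partner, had 39.4, 40.9 and 39.6 CPM in P and 37.5, 40.5 and 37.5 CPM in AxR libraries. The lines overlapped and the log2 fold change of -0.06 did not pass the test (95% interval -0.19 to 0.08, adjusted p = 0.474 by edgeR), an interval that leaves out changes as large as that of Erbb3. Its neighbours Mien1, which shares 9 exon bases with it on the opposite strand, and Grb7, an adaptor that is often gained together with ERBB2 in breast cancer, were both higher at 0.59 (adjusted p = 6.83e-05 and 8.39e-05 by edgeR). Of the 5 tested genes on each side of Erbb2, 5 were higher, 2 lower and 3 not passing, with a median of 0.25. Over all genes tested, 32.8% were higher and 30.8% lower.

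Egfr (ENSMUSG00000020122.16, chr11:16752203-16918158, plus strand), the receptor for Areg and Tgfa, was the lowest of the 3 receptors tested, with 7.48, 6.58 and 6.52 CPM in P and 5.21, 5.04 and 7.0 CPM in AxR libraries. AxR replicate 3 lay within the range of the P libraries and the other two lay below it. The log2 fold change was -0.25 (standard error 0.148, 95% interval -0.56 to 0.07, adjusted p = 0.156 by edgeR). Without AxR replicate 3 it was -0.42 and passed (adjusted p = 0.0216 by edgeR), so the call for Egfr rests on that library. These levels rest on 79 to 123 counts per library.

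Erbb4 (ENSMUSG00000062209.15, chr1:68032186-69108059, minus strand), the other neuregulin receptor, had 1 count in P replicate 3 and none in the other 5 libraries. A count of 3 corresponds to between 0.171 and 0.196 CPM, so the level of Erbb4 was at or under this limit in both lines and no fold change is given. Such limits cover counting error only.

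With levels divided by exon length, Erbb2 and Erbb3 made up nearly all receptor transcripts. In P libraries Erbb2 held 49.9% to 52.5% of the receptor sum and Erbb3 43.2% to 46.3%. In AxR libraries the order was turned, with 40.4% to 41.5% for Erbb2 and 54.9% to 57.3% for Erbb3. The ratio of Erbb3 to Erbb2 per kb of exon was 0.861 ± 0.0575 in P and 1.38 ± 0.0513 in AxR cells (SD, n = 3 each), without overlap. In CPM this ratio was 0.994 ± 0.0658 in P and 1.59 ± 0.0557 in AxR cells. The order in P cells therefore rests on the exon lengths. Egfr held 3.78% to 4.56% of the receptor sum in P and 2.31% to 3.56% in AxR libraries.

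Promoter sequences are shown for the lower ligands that could be matched, since these moved together. RefSeq's table of GRCm38.p6 held 6 of the 10 members (Egfr, Erbb2, Erbb4, Areg, Tgfa and Btc), and the 250 bases before the start are printed 5′ to 3′ on the gene's strand, in lower case. Capitals mark matches on either strand to an AP-1 site (TGANTCA), a cAMP response element (TGACGTCA), a TATA box (TATAAA), a GC box (GGGCGG) or an E-box (CACGTG). The lines are Areg at chr5:91139349-91139598 on the plus strand, Tgfa at chr6:86194972-86195221 on the plus strand and Btc at chr5:91402995-91403244 on the minus strand.
Areg: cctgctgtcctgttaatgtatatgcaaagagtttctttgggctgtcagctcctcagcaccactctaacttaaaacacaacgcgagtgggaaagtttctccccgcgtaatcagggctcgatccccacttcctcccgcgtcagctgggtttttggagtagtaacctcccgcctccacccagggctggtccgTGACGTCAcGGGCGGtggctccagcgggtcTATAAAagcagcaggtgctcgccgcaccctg
Tgfa: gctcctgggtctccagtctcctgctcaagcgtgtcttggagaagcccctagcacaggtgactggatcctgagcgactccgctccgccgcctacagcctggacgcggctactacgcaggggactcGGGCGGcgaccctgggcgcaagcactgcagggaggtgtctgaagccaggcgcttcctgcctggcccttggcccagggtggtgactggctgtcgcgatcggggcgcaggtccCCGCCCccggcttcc
Btc: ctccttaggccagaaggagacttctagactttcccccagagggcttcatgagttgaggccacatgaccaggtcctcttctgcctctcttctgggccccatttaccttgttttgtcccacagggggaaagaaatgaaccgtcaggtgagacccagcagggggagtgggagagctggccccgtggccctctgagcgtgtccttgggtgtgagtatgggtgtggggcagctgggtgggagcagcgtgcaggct
The Areg window held a cAMP response element starting 61 bases, a GC box 52 bases and a TATA box 31 bases before the start. A cAMP response element was in 1.55% of 32851 promoter windows of this length, a TATA box in 12.4% and a GC box in 32.7%. Tgfa held 2 GC boxes, 126 and 15 bases before the start, and Btc held none of these motifs. An AP-1 site, in 6.75% of windows, and an E-box, in 6.02%, were in none of the 3. None of the windows of the 3 receptors that could be matched held a cAMP response element, and that of Egfr held a GC box. These are matches of letters only.

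Areg, the amphiregulin gene (ENSMUSG00000029378.5, chr5:91139599-91148432, plus strand), had the largest change of the family. It had 40.2, 56.5 and 43.8 CPM in P and 12.7, 14.3 and 16.4 CPM in AxR libraries. All 3 AxR libraries were far below the lowest P library, and P replicate 2 stood highest. The means were 46.8 ± 8.55 and 14.5 ± 1.85 CPM (SD, n = 3 each). AxR cells were at a log2 fold change of -1.69 (standard error 0.139, 95% interval -2.0 to -1.38, adjusted p = 2.24e-06 by edgeR), or 3.23-fold lower. Of all genes tested, 2.22% had a log2 fold change as low or lower.

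Hbegf, which encodes heparin-binding EGF-like growth factor, a ligand of Egfr and Erbb4 (ENSMUSG00000024486.5, chr18:36504927-36515805, minus strand), had the highest CPM of the members in both lines. Its P libraries had 212, 248 and 216 CPM and its AxR libraries 95.2, 107 and 116 CPM. Every AxR value was thus well under every P value. The log2 fold change was -1.09 (standard error 0.0762, 95% interval -1.25 to -0.92, adjusted p = 4.96e-08 by edgeR), or 2.13-fold lower. Hbegf went against its chromosome, whose tested genes had a median of 0.50, and relative to that median it was at -1.59.

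Tgfa, the gene of transforming growth factor alpha and a ligand of Egfr (ENSMUSG00000029999.14, chr6:86195223-86275719, plus strand), had 119, 129.6 and 128 CPM in P and 62.4, 59.6 and 64.1 CPM in AxR libraries. Libraries of a line lay close together and the lines were well apart. The log2 fold change was -1.02 (standard error 0.0561, 95% interval -1.14 to -0.90, adjusted p = 7.11e-10 by edgeR), or 2.02-fold lower, the most precise of the ligand changes.

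Btc, the betacellulin gene (ENSMUSG00000082361.6, chr5:91357261-91402994, minus strand), encodes another ligand of Egfr and Erbb4 and was expressed at a low level, with 6.20, 7.04 and 7.89 CPM in P and 2.79, 3.70 and 3.13 CPM in AxR libraries. The lines did not overlap, on 102 to 122 counts in P and 44 to 58 counts in AxR libraries. Its log2 fold change was -1.13 (standard error 0.158, 95% interval -1.47 to -0.80, adjusted p = 1.50e-05 by edgeR).

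Nrg1, the neuregulin gene whose products bind Erbb3 and Erbb4 (ENSMUSG00000062991.7, chr8:31814551-32884029, minus strand), had the smallest of the ligand changes. It had 65.6, 72.9 and 70.6 CPM in P and 46.7, 48.1 and 57.4 CPM in AxR libraries, and AxR replicate 3, the highest of its line, was still below the lowest P library. The log2 fold change was -0.46 (standard error 0.0763, 95% interval -0.62 to -0.29, adjusted p = 0.000107 by edgeR), and chromosome 8 had a median of -0.18. Values are summed over all transcripts of the gene, so the neuregulin forms are not separated. The antisense gene Gm26578 shares 482 exon bases with Nrg1 and held at most 25.96 counts in a library, where Nrg1 had 735.07 or more.

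Ereg, the epiregulin gene (ENSMUSG00000029377.5, chr5:91074622-91093646, plus strand), lies next to Areg and was at 0 counts in all 6 libraries. A count of 0 leaves room for 0.171 to 0.196 CPM, depending on the library.

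**Figure D2:**
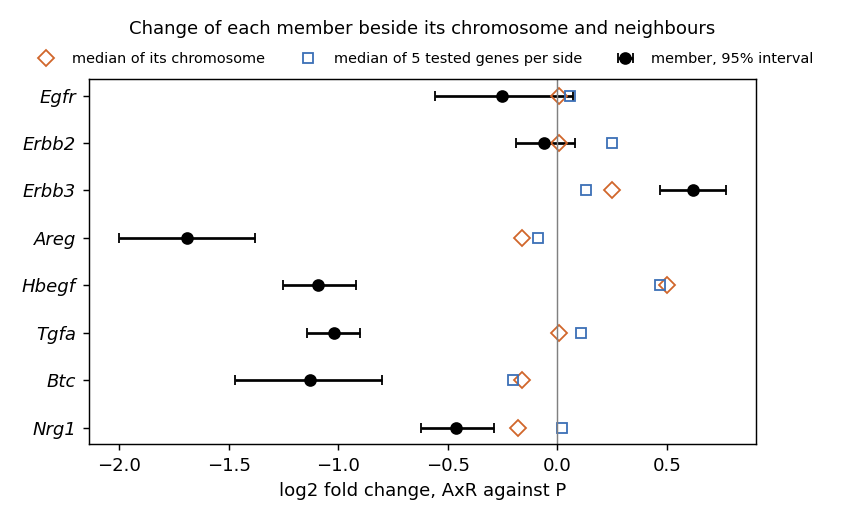
Log2 fold change of AxR against P (x axis) of the 8 tested members, with 95% intervals from edgeR's fit in black, the median of the tested genes on the same chromosome (orange diamonds) and the median of the 5 nearest tested genes on each side (blue squares). The intervals of the 5 ligands lie below 0 and below the chromosome medians, that of Erbb3 lies above 0 and above 0.25, and those of Egfr and Erbb2 include 0.

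Per kb of exon, the ligand sum was 103, 126 and 109 CPM per kb in the P libraries and 44.9, 48.5 and 53.6 CPM per kb in the AxR libraries. The P mean was 2.31 times the AxR mean per kb and 2.01 times in CPM, and the lines did not overlap on either scale. Receptors summed to between 14.5 and 15.2 CPM per kb in P and between 17.3 and 19.2 CPM per kb in AxR libraries. Ligand transcripts thus stood at 7.57 ± 0.757 times the receptor sum in P and 2.72 ± 0.323 times in AxR cells (SD, n = 3 each). In CPM the ligand and receptor sums averaged 474 and 86.6 in P and 236 and 106 in AxR cells. The size of these ratios therefore depends on exon length. These sums are a description of the 10 genes and were not tested.

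**Figure D3:**
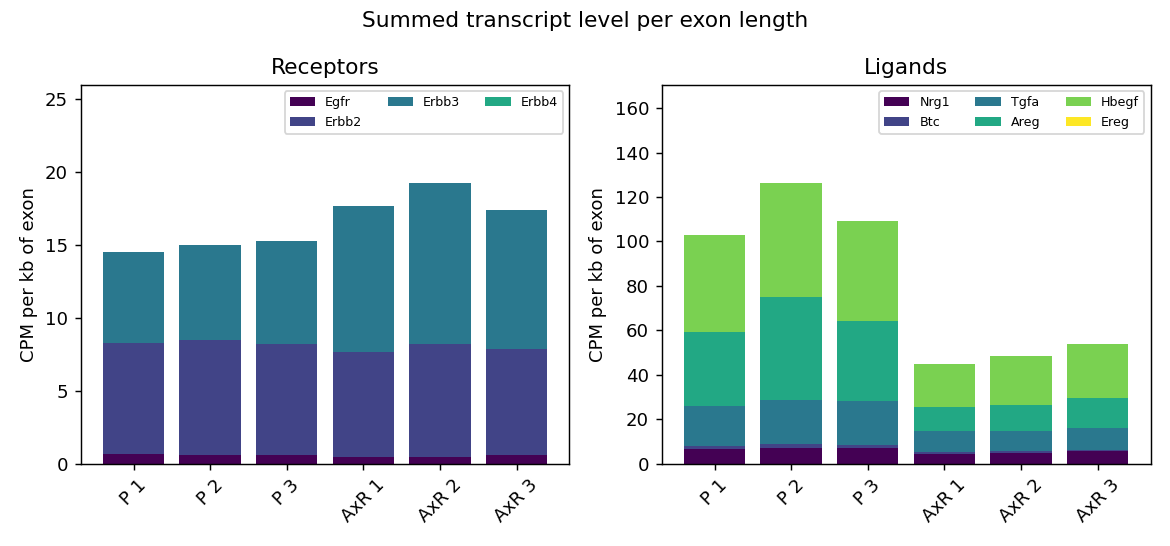
Summed level per exon length (y axis, CPM per kb of exon, from 0) of the receptors (left) and ligands (right) in each library, stacked by gene. The ligand bars of the AxR libraries end between 44.9 and 53.6 and those of the P libraries between 103 and 126, while the receptor bars are taller in AxR libraries through Erbb3.

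The order of levels changed with these shifts. In P cells the order per kb was Hbegf, Areg, Tgfa, Erbb2, Nrg1, Erbb3, Btc and Egfr, where the ranges of Hbegf and Areg overlapped, as did those of Nrg1 and Erbb3. In AxR cells Erbb3 came after Areg and before Tgfa, and its range (9.52 to 11.0 CPM per kb) overlapped both of these. Within the ligand sum, Areg went from 32.1% to 36.8% in P libraries to between 23.3% and 25.2% in AxR libraries. Nrg1 went the other way, from between 5.57% and 6.26% to between 9.59% and 10.4%, although its own level was lower. Hbegf held the largest share in both lines, at 40.6% to 42.6% and 43.9% to 45.5%. Exon length was the union over all annotated transcripts, so genes with many transcript forms, such as Nrg1, have levels per kb that are understated.

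The positions of the lower ligands were then compared with those of their neighbours. Areg, Ereg, Btc and Epgn lie within 376 kb of chromosome 5, and both of the 2 that were tested were lower. Of the 5 tested genes on each side of Areg, 3 were lower (Btc, Cxcl1 and Mthfd2l), 2 were higher (Ppbp and Cxcl3, both chemokine genes at 2.06 CPM or less) and 5 did not pass, with a median of -0.09. Around Hbegf, 8 of 10 neighbours were higher, and only Nrg2, another EGF family gene 487 kb away, was lower. The median of these 10 was 0.47, beside 0.50 for all tested genes of chromosome 18. These calls stand beside 32.8% higher and 30.8% lower over all genes tested. Neighbours of Tgfa and Nrg1 had medians of 0.11 and 0.02. For each of the 5 ligands the log2 fold change was therefore below the median of its neighbours.

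**Figure D4:**
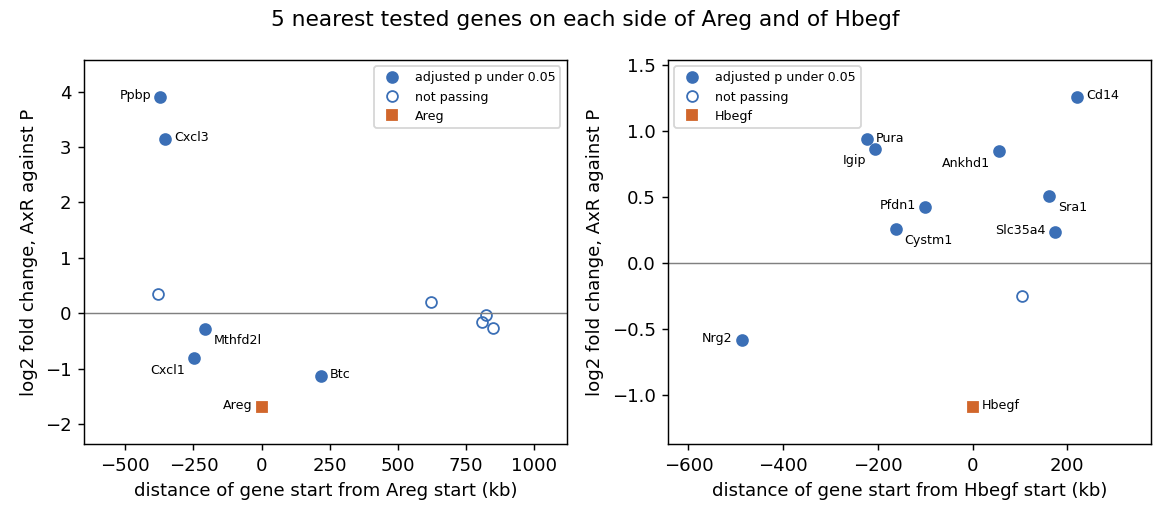
Log2 fold change of AxR against P (y axis) of the 5 nearest tested genes on each side of Areg (left) and Hbegf (right), by the distance between gene start coordinates in kb (x axis), with filled circles for an adjusted p under 0.05 and the ligand as an orange square. Areg lies lowest of its stretch with Btc next to it, and Hbegf lies at -1.09 among neighbours of which 8 are above 0.

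The other ligands of the family had low levels. Nrg2, a neuregulin, was lower in AxR cells (2.98 ± 0.306 against 1.99 ± 0.362 CPM, log2 fold change -0.58, adjusted p = 0.0243 by edgeR). Egf itself, the founding ligand, averaged 0.864 CPM in P and 0.841 CPM in AxR cells (log2 fold change -0.03, adjusted p = 0.940 by edgeR), and Nrg4 0.893 and 0.820 CPM (-0.10, adjusted p = 0.794 by edgeR). Epgn had at most 10 counts in a library and was not tested, and Nrg3 had no count.

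Of 11 genes for the release of ligands, 10 were tested. AxR cells had 4 of them higher and 2 lower, beside 32.8% higher and 30.8% lower over all genes tested, and the median was 0.10 on the log2 scale, beside 0.01. Adam17, the main sheddase of Areg, Tgfa and Hbegf, rose from 76.6 ± 2.05 to 91.0 ± 4.84 CPM (log2 fold change 0.25, adjusted p = 0.00127 by edgeR). Rhbdf1 and Frmd8, which support the trafficking and stability of Adam17, rose by 0.38 and 0.20 on the log2 scale, and Adam15 by 0.36. Chromosome 3, which holds Adam15, had a median of 0.32. Rhbdf2, the other carrier of Adam17, did not pass (-0.20, adjusted p = 0.102 by edgeR), nor did Adam10, which cleaves Btc and Egf (0.12), Adam12 (0.08) and Rhbdl2 (-0.04). Adam19, a metalloprotease able to cleave neuregulin, had the largest change of all lists. It fell from 50.9 ± 1.48 to 2.88 ± 0.302 CPM, or by -4.14 on the log2 scale (standard error 0.0960, adjusted p = 7.53e-14 by edgeR) or 17.6-fold lower. Adam9 was lower by less (-0.25), and Timp3, an inhibitor of Adam17, had at most 3 counts in any library.

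Of 11 genes that restrain the receptors, 3 were higher, 4 lower and 4 not passing, with a median of 0.09. The 7 that passed are a share close to the 63.5% of all genes tested (32.8% higher and 30.8% lower). Errfi1, a feedback inhibitor that binds the kinase of Egfr and Erbb2 and is itself induced by their signalling, fell from 403 ± 34.0 to 266 ± 19.6 CPM (log2 fold change -0.60, adjusted p = 2.61e-06 by edgeR). Lrig1, a membrane protein that lowers ERBB levels, fell by 0.41 on the log2 scale, while its relative Lrig3 rose by 1.20, from 11.5 ± 0.468 to 26.5 ± 2.82 CPM. Sh3kbp1, an adaptor that couples Cbl to receptor uptake, had the largest drop of the list, from 41.5 ± 1.85 to 7.95 ± 0.324 CPM (log2 fold change -2.38, adjusted p = 3.90e-12 by edgeR). Rnf41, a ubiquitin ligase for Erbb3, had 44.2 ± 3.10 CPM in P and 48.7 ± 1.41 CPM in AxR cells (0.14, adjusted p = 0.0797 by edgeR).

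Among 8 receptor partners, 3 were higher, 2 lower and 1 not passing of the 6 tested, with a median of 0.05, where all genes tested had 32.8% higher and 30.8% lower. Hsp90ab1, a chaperone on which Erbb2 depends, rose most (log2 fold change 0.80), and Cd44, a docking protein for Hbegf, fell most (-0.59). Muc1 and Muc4 were too low to test. Of the 27 adaptors and proximal signalling genes, 11 were higher and 12 lower, beside 63.5% passing in either direction (32.8% higher, 30.8% lower) among all genes tested. Their median was -0.04, beside 0.01. Nras, a RAS protein, had the largest rise, from 329 ± 11.6 to 2007 ± 77.8 CPM (log2 fold change 2.61, adjusted p = 2.24e-14 by edgeR) or 6.10-fold, where chromosome 3 had a median of 0.32. Plcg1, a phospholipase bound by Egfr, had the largest drop (-0.68).

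Of 17 early response genes, which growth factor signalling induces through ERK, 10 were lower and 3 higher in AxR cells and the median was -0.26, beside 30.8% lower and 32.8% higher over all genes tested. Fosl1, an AP-1 subunit, had the largest drop, from 223 ± 16.5 to 71.0 ± 9.47 CPM (log2 fold change -1.65, adjusted p = 1.64e-08 by edgeR). Dusp5 and Dusp6, phosphatases that switch off ERK, were at -1.20 and -0.59, Etv4, an ETS factor, at -0.99, and the growth regulators Myc and Ccnd1 at -0.89 and -0.53, all lower by the same test. Egr1 and Spry4 were higher, at 0.64 and 0.28. Both lie on chromosome 18, whose tested genes had a median of 0.50, and relative to it they were at 0.14 and -0.22. Among the lower genes, Etv5 (-0.19) lies on chromosome 16, with a median of -0.32, and was at 0.13 relative to it. The other lower genes were below their chromosome medians, by between -1.65 (Fosl1) and -0.37 (Junb). Fos had the largest rise, from 2.32 ± 0.921 to 4.15 ± 0.943 CPM (0.83, adjusted p = 0.0125 by edgeR).

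**Figure D5:**
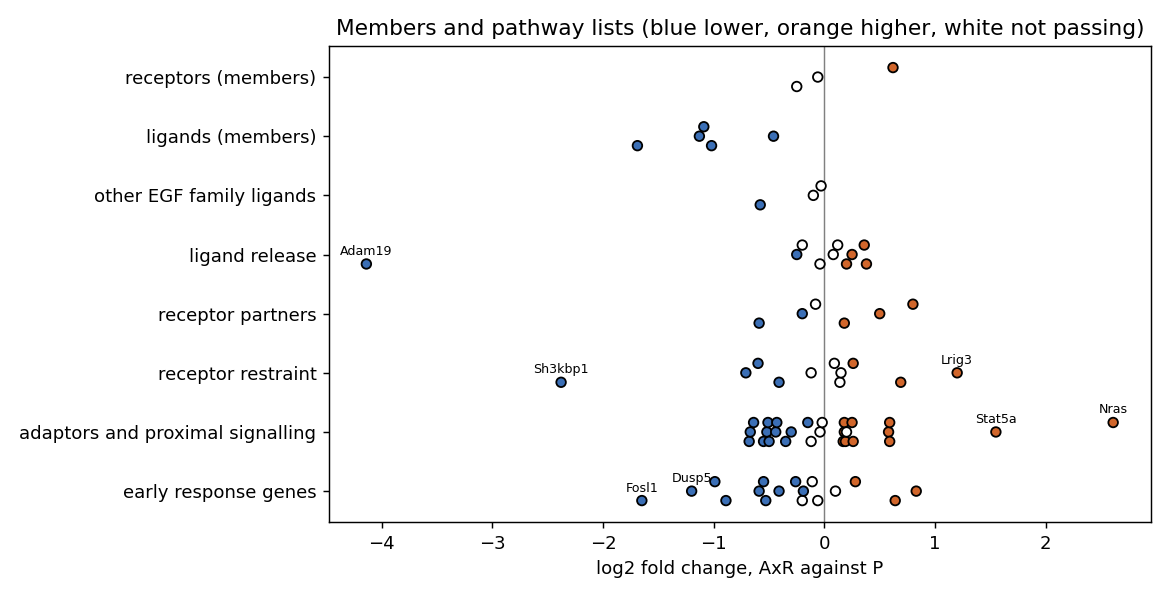
Log2 fold change of AxR against P (x axis) of each tested gene of the receptors, the ligands and the 6 pathway lists (rows), with blue for lower, orange for higher and white for genes not passing an adjusted p of 0.05, and with names for the largest changes of the pathway lists. All 5 ligands lie to the left of 0, whereas the adaptor genes spread to both sides, from Plcg1 at -0.68 to Nras at 2.61.

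As a description of its pattern, the log2 CPM of Areg over the 6 libraries was most like those of Tbc1d1, Usp4 and Ddx27, with Pearson's r of 0.9996, 0.9995 and 0.9989. These points fall into the 2 lines, and 1856 tested genes had an r of at least 0.95 with Areg.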

How the data were processed

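Stranded poly(A) libraries of 3 P and 3 AxR samples were grouped by their titles. The authors aligned reads to GRCm38 with STAR 2.6.0a and GENCODE M16 and deposited RSEM 1.3.1 estimated counts per gene, after read checks with FastQC 0.11.5. Whether counting used the strand is not given in the sources used here. RSEM divides shared reads by likelihood, and 10.3% to 10.7% of values per library were not whole.

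Estimated counts were rounded, filtered with filterByExpr, normalized by upper quartile as in the study, and fitted in edgeR 4.0.16 (glmQLFit and glmQLFTest, robust, line as the only term) in R 4.3.3. P-values were adjusted by Benjamini-Hochberg over 13550 genes with a threshold of 0.05. The fit was also run on simulated counts with known changes in a small part of the genes and the same dispersion for every gene. Those settings differ from these data, so that run does not test the p-values given here. Symbols, positions and exon lengths came from GENCODE M21, in which 53360 of the 53465 identifiers were found. CPM used estimated counts over normalized library size, and log2 CPM a prior count of 2. Replicates of a line differed by more than sampling noise (chi-square per degree of freedom of 5.10 or more). AxR replicates 1 and 3 differed most, at 19.7, where the next highest pair, P replicates 2 and 3, was at 8.48.

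The members and gene lists were chosen with earlier results of these data known. All members are named, together with the largest rise and fall in each pathway list, the other ligands and the tested release genes, Errfi1, Lrig1 and Rnf41, the highest marker of each cell type, and the 3 genes most like Areg. Grb7, Mien1, the neighbours of Areg and Hbegf, and other members of the lists that are named were chosen after their values were seen. Alternatives were TMM, library size only, DESeq2 1.42.0, limma 3.58.1 (voom), other filters, a replicate block, a fold threshold, subtraction of chromosome medians, and each library left out.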

Additional observations from a re-analysis of the deposited data

How the results depend on the processing

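The calls and directions of Erbb2, Erbb3, Areg, Hbegf, Tgfa, Btc and Nrg1 were the same under all 13 alternative fits (TMM, library size only, no low-count filter, at least 10 counts in every library, a replicate block, DESeq2, limma-voom and each of the 6 libraries left out). Egfr passed only without AxR replicate 3, where 6 members were lower. Leaving out 1 library at a time gave log2 fold changes between -0.42 and -0.16 for Egfr, between -0.09 and -0.03 for Erbb2, between 0.57 and 0.67 for Erbb3, between -1.79 and -1.53 for Areg, between -1.16 and -1.01 for Hbegf, between -1.05 and -0.98 for Tgfa, between -1.24 and -1.04 for Btc and between -0.55 and -0.39 for Nrg1. With the chromosome median subtracted, Erbb3 was at 0.37, Hbegf at -1.59 and Nrg1 at -0.28. With a further threshold of 1 on the size of the log2 change, 0 members were higher and 4 lower by edgeR. Without that threshold 1 was higher (by the adjusted p, by an unadjusted p under 0.05 and by DESeq2) and 5 were lower. Of the pathway lists, 3 genes were higher and 4 lower with the threshold (24 and 31 without it). Over all genes, 1083 were higher and 640 lower with it (4441 and 4167 without it). Replicate numbers are not stated to pair the lines, and no sign of pairing was seen. The correlation of deviations from the line means lay between -0.0217 and -0.0061 for libraries of the same number, and 0 of the 6 libraries correlated best with their own number. With 3 libraries per line this cannot show that the numbers do not pair. With the replicate block, 4304 genes were higher and 4023 lower, and 1 member was higher and 5 lower. Depth limited Egfr, Btc, Erbb4 and Ereg most.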
